A study of Mus musculus with 12 samples.

Results

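The genes described here are 10 imprinted genes linked to fetal growth: H19, Igf2, Dlk1, Meg3, Rian, Mirg, Dio3os, Peg3, Grb10 and Cdkn1c. They were taken by symbol, and the group was chosen by the counts of H19 and Dio3os, which differ strongly between the genotypes, so the values of H19 and Dio3os are given as a description with no test. Of the 10 symbols, 9 were among the 22537 genes of the count table, 8 passed the filter on low counts, and Mirg was not analysed here. Dlk1 was in the table and did not pass the filter, which leaves 6 genes (Igf2, Meg3, Rian, Peg3, Grb10 and Cdkn1c) for which a test is given.

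Poly-A RNA from liver was sequenced in 12 libraries, with 3 mice per genotype. All mice were C57BL/6 females, 6 months old, and all had been fed a high-fat diet for 13 weeks, controls included. The groups were ARNT KO and its control ARNT Flox, and AHR KO and its control AHR Flox. AHR, the aryl hydrocarbon receptor, is switched on by ligands and binds DNA together with ARNT, which is shared with the hypoxia-inducible factors. The series describes the loss as hepatic. The sources used here do not give the recombinase line, the cells it acts in or the deleted part of each gene.

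Genomic imprinting leaves 1 parental copy of a gene active and silences the other through methylation laid down in the germ line. H19, a long non-coding RNA made from the maternal copy, and Igf2, a fetal growth factor made from the paternal copy, lie side by side and share enhancers, and both are strongly expressed in fetal liver and fall after birth. A second imprinted domain holds the paternally expressed Dlk1 and Dio3 and the maternally expressed non-coding RNAs Meg3, Rian and Mirg. Dio3 encodes the deiodinase that inactivates thyroid hormone, and Dio3os is the non-coding RNA transcribed beside it from the opposite strand.

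Several facts of the libraries touch every result below. Libraries held 23585909 to 33255004 counts. Levels are given in CPM, which divides counts by the TMM-normalised size of the library. A count of 0 allows up to 3 counts, or 0.0862 to 0.126 CPM depending on the library, which covers counting error only. Arnt was low in all ARNT KO libraries, at 25.2, 23.9 and 18.95 CPM against 50.2 ± 2.33 CPM in ARNT Flox (SD, n = 3), with a log2 change of -1.15 ± 0.12 (SE; edgeR, adjusted p = 0.00601). Ahr itself averaged 86.5 ± 7.48 CPM under the AHR KO label and 68.4 ± 12.9 CPM in AHR Flox (SD, n = 3 each), so the label of that group is not borne out by the level of Ahr, and a deletion of part of the gene cannot be seen in counts per gene. The third ARNT KO library stood apart: on the first principal component, which held 43% of the variance, it was at 65.3, whereas the other 11 libraries lay between -30.9 and 30.3. Its low Arnt matched its label, yet its level of several genes below was that of ARNT Flox or beyond, so each result that rests on it is given with it and without it.

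The liver label was borne out by hepatocyte markers, of which none of the 11 in the table was at 0 counts in any group, with summed levels from 43164 to 131420 CPM. In bulk tissue, fewer cells of a type and less RNA per cell cannot be told apart. Counts from a gene and from an overlapping gene on the other strand could not be told apart either, since the sources used here do not say whether counting used strand. This touches Igf2 (overlapped by Igf2os over 7124 bases), Meg3 (by Gm26906) and Cdkn1c (by Gm44732). It also touches H19, overlapped by Gm27483 over 71 bases and by Gm27786 over 70 bases. None of those partners was in the table.

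The 4 short RNAs are shown first because they lie inside the host genes whose levels are compared below. The mature miRNAs were not measured here. The sequences are from RefSeq (GRCm38.p6), 5′ to 3′, and the capitals mark the seed (bases 2 to 8). No pair of them shared a seed.
miR-675-5p: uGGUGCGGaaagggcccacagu
miR-675-3p: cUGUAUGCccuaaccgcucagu
miR-483-5p: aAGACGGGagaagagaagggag
miR-483-3p: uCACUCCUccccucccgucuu
The miR-675 pair comes from within H19 and the miR-483 pair from within Igf2, on the strand of the host in both cases.

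The windows at the starts of Dio3os and Dio3 are shown because the levels of these neighbours rose and fell together across the libraries. Each window runs from 250 bases before to 50 bases after the gene's start (RefSeq, GRCm38.p6), and the capitals mark CpG dinucleotides, the sites at which imprinted DNA is methylated. Methylation was not measured here.
Dio3os, chr12:110278019-110278318, minus strand: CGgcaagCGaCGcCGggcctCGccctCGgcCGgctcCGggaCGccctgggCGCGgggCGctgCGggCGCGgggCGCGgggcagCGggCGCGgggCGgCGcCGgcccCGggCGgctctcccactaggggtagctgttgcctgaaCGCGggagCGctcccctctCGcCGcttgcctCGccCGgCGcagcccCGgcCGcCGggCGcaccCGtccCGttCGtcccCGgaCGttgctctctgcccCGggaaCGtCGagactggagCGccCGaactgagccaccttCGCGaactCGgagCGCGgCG
Dio3, chr12:110278980-110279279, plus strand: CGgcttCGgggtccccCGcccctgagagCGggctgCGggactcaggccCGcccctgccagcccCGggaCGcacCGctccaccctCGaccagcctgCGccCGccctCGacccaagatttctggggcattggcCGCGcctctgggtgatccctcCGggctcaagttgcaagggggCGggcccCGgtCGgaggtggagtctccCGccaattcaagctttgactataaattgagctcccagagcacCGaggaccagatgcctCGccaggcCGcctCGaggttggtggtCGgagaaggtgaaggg
The Dio3os window had 53 CpG dinucleotides, and 0.451% of 32851 RefSeq promoter windows held as many CpG. The Dio3 window had 25 CpG dinucleotides, a count reached by 18.4% of the windows, whose median was 7. The 2 windows were 661 bases apart. The core letters of the element bound by AHR with ARNT (GCGTG, read on both strands) and of the element bound by hypoxia-inducible factors with ARNT (ACGTG, read on both strands) were present in neither window. Over all promoter windows, 32.4% held GCGTG and 19.6% held ACGTG. Among the 13 windows of 8 of the genes, GCGTG was present in 3 (Peg3, Grb10 and Dlk1) and ACGTG in 2 (Igf2 and Dlk1). These counts describe letters in a window and say nothing of binding. H19 and Cdkn1c had no window in the table used.

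H19 had the widest range of the genes, 235-fold between its lowest and highest library. It lies on chromosome 7 (142575530 to 142578146, GRCm38.p6, minus strand). ARNT KO had 5.71, 8.83 and 119.7 CPM in replicates 1, 2 and 3 (184, 278 and 4169 counts), against 90.1, 120.5 and 65.7 CPM in ARNT Flox (3027, 3848 and 1568 counts). Libraries labelled AHR KO had 4.52, 9.42 and 7.49 CPM (139, 291 and 239 counts), against 0.613, 0.513 and 0.704 CPM in AHR Flox (18, 15 and 17 counts). Every library labelled AHR KO was above every AHR Flox library. ARNT KO replicates 1 and 2 were below every ARNT Flox library, and replicate 3 was inside their range.

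The group means of H19 were 44.8 ± 64.9 CPM in ARNT KO, 92.1 ± 27.4 CPM in ARNT Flox, 7.14 ± 2.47 CPM in AHR KO and 0.610 ± 0.0957 CPM in AHR Flox (SD, n = 3 each). The mean of the libraries labelled AHR KO was 11.7-fold that of AHR Flox, a log2 change of 3.55 that ran from 3.29 to 3.79 when single libraries were left out. In ARNT KO the log2 change was -1.04 with all libraries and -3.66 without replicate 3, where the mean was 7.27 ± 2.21 CPM (SD, n = 2), 12.7-fold lower than in ARNT Flox. The direction of H19 was thus opposite under the 2 knockout labels. Between the control lines the distance was larger than under either label: ARNT Flox was 151-fold above AHR Flox (log2 change 7.24). In order of level the groups ran ARNT Flox, ARNT KO, AHR KO and AHR Flox; ARNT KO overlapped with both of its neighbours in that order, and without replicate 3 it was level with AHR KO.

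**Figure D1:**
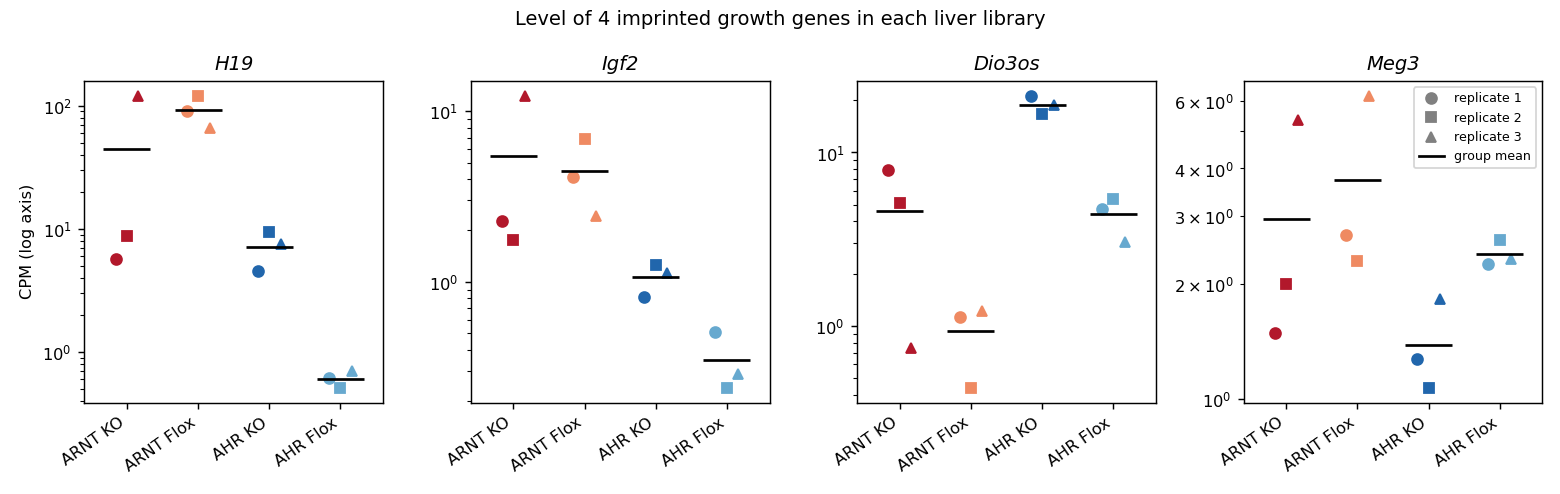
CPM on a log axis for H19, Igf2, Dio3os and Meg3 in each of 12 liver libraries; circles, squares and triangles are replicates 1, 2 and 3, and the black line is the group mean. The triangle of ARNT KO lies with ARNT Flox for H19 (119.7 CPM) and Dio3os (0.747 CPM), away from the other 2 ARNT KO libraries.

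Igf2, which encodes insulin-like growth factor 2, lies 72.6 kb from H19 (chromosome 7, 142650768 to 142666816, minus strand) and was not chosen for its values. Its levels were 2.27, 1.75 and 12.3 CPM in ARNT KO, against 4.11, 6.86 and 2.43 CPM in ARNT Flox. Libraries labelled AHR KO had 0.813, 1.26 and 1.13 CPM, against 0.511, 0.239 and 0.290 CPM in AHR Flox. The groups in each knockout pair were arranged much as for H19: all libraries labelled AHR KO were above all AHR Flox libraries, ARNT KO replicates 1 and 2 were below all ARNT Flox libraries, and ARNT KO replicate 3 was the highest of the 12.

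Between the control lines, the mean of Igf2 in ARNT Flox was 12.9-fold that in AHR Flox (log2 change 3.67 ± 0.80, SE; edgeR, adjusted p = 0.0773, or 0.102 with the replicate number as a block), which did not pass the threshold of 0.05. It passed without ARNT KO replicate 3, which lowers the spread shared by all groups (3.67 ± 0.43, adjusted p = 0.000732, its range over the alternatives being 2.81e-05 to 0.261). For the libraries labelled AHR KO, Igf2 had a log2 change of 1.60 ± 0.85 (adjusted p = 0.495, edgeR). In ARNT KO the value was 0.28 ± 0.62 (adjusted p = 1.00), and without replicate 3 it was -1.16 ± 0.38 (adjusted p = 0.169, range over the alternatives 0.169 to 1.00). The difference between the effects under the AHR KO and ARNT KO labels was 1.32 ± 1.06 on the log2 scale (adjusted p = 0.791), and 2.76 ± 0.61 without ARNT KO replicate 3 (adjusted p = 0.0552, range over the alternatives 0.0552 to 0.942).

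The ratio of H19 counts to Igf2 counts is given as a description, since H19 was chosen for its difference between groups and the ratio carries that choice. Not adjusted for length, it was 2.52, 5.05 and 9.72 in ARNT KO, against 21.9, 17.6 and 27.0 in ARNT Flox. It was 5.56, 7.46 and 6.64 in the libraries labelled AHR KO, against 1.2, 2.14 and 2.43 in AHR Flox. This ratio did not overlap between ARNT KO and ARNT Flox, nor between AHR KO and AHR Flox, and ARNT KO replicate 3 was below every ARNT Flox library. The AHR Flox ratios rest on 7 to 15 counts of Igf2 per library. On log2 CPM the Pearson r of H19 with Igf2 was 0.940 over 12 libraries and 0.943 without ARNT KO replicate 3. On the other side of H19, the nearest tested gene, Mrpl23 (a mitochondrial ribosomal protein, 34.8 kb away), had log2 changes of 0.38 in the libraries labelled AHR KO (edgeR, adjusted p = 0.149; DESeq2, adjusted p = 0.0359) and -0.09 in ARNT KO (edgeR, adjusted p = 0.995). Its range of 13.8 to 16.0 CPM under the AHR KO label did not overlap the 9.73 to 12.5 CPM of AHR Flox.

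Dio3os, at the far end of the second domain (chromosome 12, 110275384 to 110278068, minus strand), was higher under both knockout labels apart from 1 library. Libraries labelled AHR KO had 21.3, 16.8 and 18.7 CPM (654, 518 and 596 counts), against 4.73, 5.37 and 3.06 CPM in AHR Flox (139, 157 and 74 counts). ARNT KO had 7.98, 5.08 and 0.747 CPM (257, 160 and 26 counts), against 1.13, 0.438 and 1.21 CPM in ARNT Flox (38, 14 and 29 counts). The libraries labelled AHR KO lay above every other library of the study, and ARNT KO replicate 3 was again within the range of ARNT Flox.

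The mean of Dio3os was 18.9 ± 2.27 CPM in AHR KO, 4.31-fold its mean of 4.39 ± 1.19 CPM in AHR Flox (SD, n = 3 each; log2 change 2.10). ARNT KO averaged 4.6 ± 3.64 CPM and ARNT Flox 0.928 ± 0.426 CPM (SD, n = 3 each), a 4.96-fold difference with a log2 change of 2.32, or 2.84 without replicate 3. ARNT Flox was 4.73-fold below AHR Flox (log2 change -2.26), the opposite order of the control lines from that of H19. Groups ran AHR KO, ARNT KO, AHR Flox and ARNT Flox in level, and ARNT KO overlapped with both control lines. The Pearson r of Dio3os with H19 was -0.610 over 12 libraries (-0.536 without ARNT KO replicate 3).

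Dio3, the coding neighbour 1.16 kb from Dio3os, had the same profile at a low count. Its counts were 52, 26 and 48 in the libraries labelled AHR KO, against 10, 17 and 3 in AHR Flox, and 20, 14 and 2 in ARNT KO, against 2, 1 and 0 in ARNT Flox. The ratio of summed counts per TMM-normalised library size was 3.72 for AHR KO over AHR Flox (95% interval 2.48 to 5.73, counting error only). For ARNT KO over ARNT Flox it was 10.9 (3.44 to 55.3), and 15.9 (5.0 to 81.0) without replicate 3. Dio3 in AHR KO had a log2 change of 1.91 ± 0.63 (edgeR, adjusted p = 0.247). In ARNT KO the change was 3.32 ± 1.01 (adjusted p = 0.588), and without replicate 3 it was 3.84 ± 0.80 (adjusted p = 0.0422, range over the alternatives 0.0422 to 0.999). On log2 CPM its Pearson r with Dio3os was 0.953 over 12 libraries and 0.952 without ARNT KO replicate 3. The promoter windows printed above belong to this pair.

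**Figure D2:**
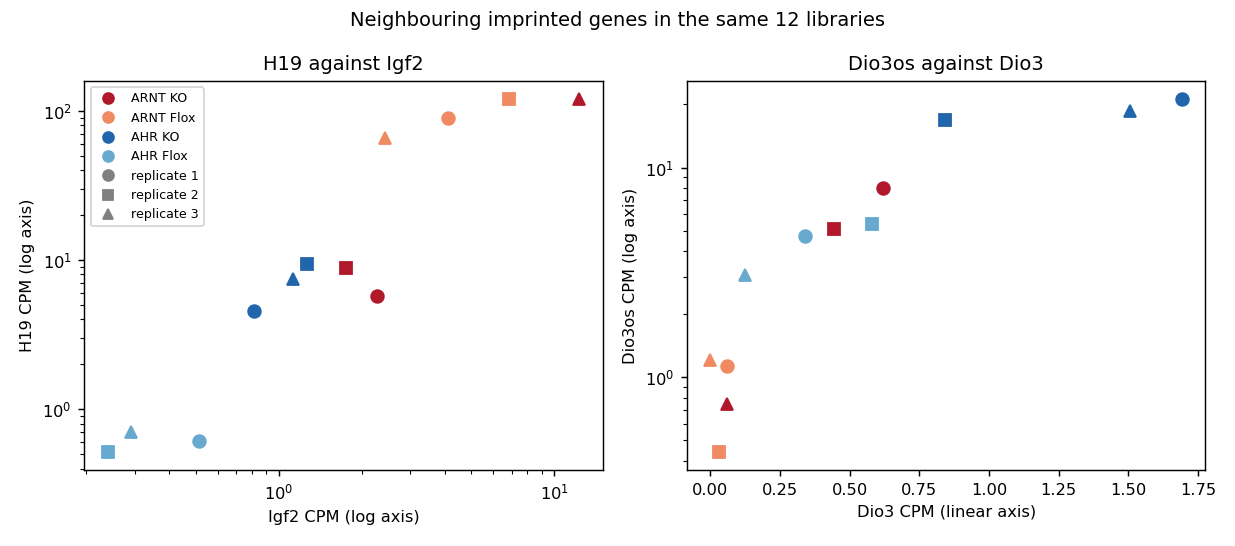
H19 against Igf2 (both log axes, CPM) and Dio3os (log axis, CPM) against Dio3 (linear axis, CPM), 1 point per library, coloured by group with the marker shape giving the replicate. In both panels the points run along 1 rising band, and ARNT KO replicate 3 (dark red triangle) sits among the ARNT Flox libraries or beyond them.

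The non-coding RNAs upstream in the same domain did not follow Dio3os. Meg3 (chromosome 12, 109540996 to 109571729) had 1.27, 1.07 and 1.82 CPM in the libraries labelled AHR KO, against 2.25, 2.598 and 2.32 CPM in AHR Flox. Rian (109603945 to 109661716), the host RNA of many small nucleolar RNAs, had 0.423, 0.356 and 0.314 CPM against 0.647, 0.752 and 0.745 CPM. Both were below AHR Flox in every library labelled AHR KO, with log2 changes of -0.78 ± 0.50 for Meg3 (edgeR, adjusted p = 0.586) and -0.96 ± 0.54 for Rian (adjusted p = 0.523), neither past the threshold.

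In ARNT KO, Meg3 was at 1.49, 2.00 and 5.37 CPM against 2.68, 2.29 and 6.20 CPM in ARNT Flox. Rian was at 0.528, 0.572 and 1.78 CPM in ARNT KO, against 0.923, 0.689 and 1.89 CPM in ARNT Flox. Replicates 1 and 2 of ARNT KO were below every ARNT Flox library for both genes and replicate 3 was not. With all libraries the log2 changes in ARNT KO were -0.31 ± 0.47 for Meg3 (edgeR, adjusted p = 0.998) and -0.25 ± 0.47 for Rian (adjusted p = 1.00). Without replicate 3 they were -1.06 ± 0.40 for Meg3 (adjusted p = 0.223, range over the alternatives 0.223 to 1.00) and -1.04 ± 0.395 for Rian (adjusted p = 0.229, range over the alternatives 0.229 to 1.00). The ratio of Meg3 counts to Rian counts stayed between 2.82 and 5.80 in all 12 libraries. Dio3os had a Pearson r of -0.752 with Meg3 and -0.798 with Rian over 12 libraries.

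Dlk1, the paternally expressed growth regulator at the other end of the domain (chromosome 12, 109452485 to 109463336), was near the floor except in 1 library. Its counts were 2, 2 and 42 in ARNT KO, against 8, 4 and 2 in ARNT Flox, and 0, 1 and 3 in the libraries labelled AHR KO, against 3, 0 and 0 in AHR Flox. The 42 counts of ARNT KO replicate 3 were the only value above 8. With it, 46 counts in ARNT KO stood against 14 in ARNT Flox, a ratio per TMM-normalised library size of 2.98 (95% interval 1.61 to 5.87, counting error only). Without it, 4 counts stood against 14, a ratio of 0.401 (0.0961 to 1.28), in the other direction and with an interval that holds 1.

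The remaining members showed little spread. Peg3, a zinc finger gene of the paternal copy (chromosome 7, 6703892 to 6730462), ranged 1.86-fold over the 12 libraries. Its means were 5.67 ± 0.605 CPM in ARNT KO, 7.01 ± 2.13 CPM in ARNT Flox, 7.12 ± 0.798 CPM in AHR KO and 6.67 ± 1.01 CPM in AHR Flox (SD, n = 3 each). Grb10, an adaptor that restrains insulin signalling (chromosome 11, 11930499 to 12037428), ranged 2.26-fold, with ARNT KO replicate 3 highest at 8.76 CPM. Its means were 5.85 ± 2.57 CPM in ARNT KO, 5.46 ± 0.751 CPM in ARNT Flox, 5.26 ± 1.07 CPM in AHR KO and 4.64 ± 0.203 CPM in AHR Flox. Cdkn1c, an inhibitor of cyclin-dependent kinases (chromosome 7, 143458339 to 143461059), ranged 1.43-fold, from 4.51 to 6.46 CPM. None of these 3 genes had a log2 change beyond 0.31 in either direction in a knockout comparison with all libraries, and edgeR's adjusted p was 0.839 or above for each.

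**Figure D3:**
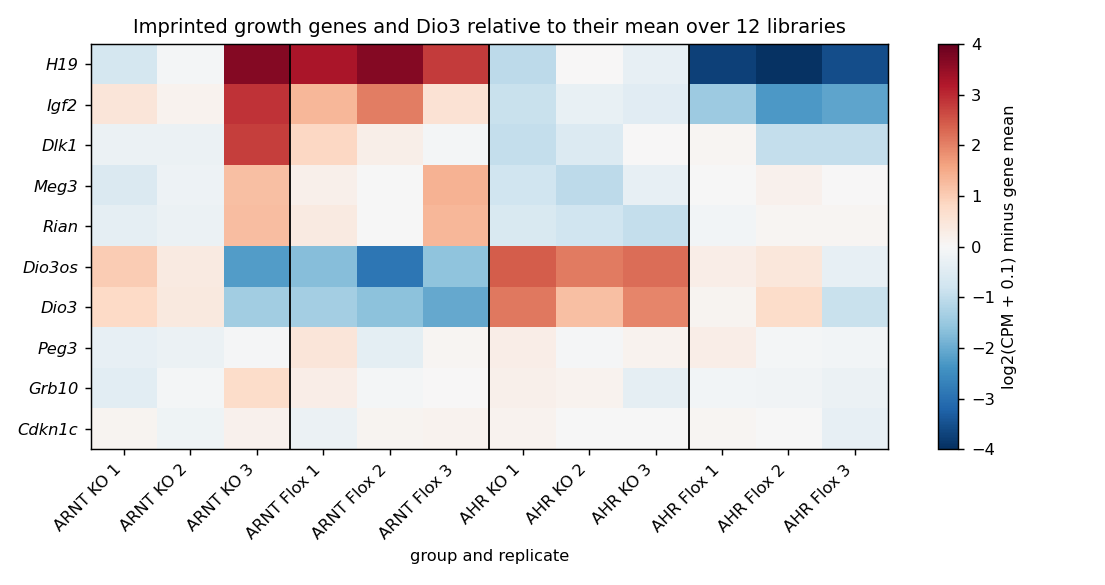
Log2(CPM + 0.1) minus the gene's mean over 12 libraries, for 9 of the genes and Dio3, with the 4 groups separated by black lines. H19 and Igf2 are high in ARNT Flox and ARNT KO replicate 3 and low in AHR Flox, Dio3os and Dio3 are high in AHR KO, and Peg3, Grb10 and Cdkn1c stay pale.

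Of the 6 genes tested, edgeR called 0 for AHR KO against AHR Flox, where 0.0788% of all 13968 tested genes were called. It called 0 of 6 for ARNT KO against ARNT Flox (0.0573% of all genes), 0 of 6 for the difference between those effects (0.043%) and 0 of 6 for ARNT Flox against AHR Flox (0.329%). At an unadjusted p under 0.05 there were 0, 0, 0 and 1 (Igf2). In the same order DESeq2 called 0, 0, 0 and 1 (Igf2), where it called 2.57%, 0.401%, 1.06% and 4.1% of all genes. With limma-voom the count was 0 in each, against 0.0716%, 0.0358%, 0.0501% and 0.222% of all genes. The count over all genes between the control lines was 46, and 23 with the replicate number as a block, with Igf2 outside the calls in both. Without ARNT KO replicate 3 it was 1 of 6 for ARNT Flox against AHR Flox (Igf2, higher; 10.9% of all 14073 genes in either direction and 6.38% higher). In that fit it was 0 of 6 for AHR KO (0.966%), for ARNT KO (1.37%) and for the difference (1.38%).

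Libraries of AHR KO and AHR Flox did not overlap for 3 of the 6 genes, Igf2 higher and Meg3 and Rian lower, where 21.2% of all tested genes did not overlap, 11.7% all higher and 9.46% all lower. For ARNT KO against ARNT Flox the count was 0 of 6 (10.8% of all genes), and 3 of 6, all lower, without replicate 3 (37.6% in either direction and 18.6% all lower). ARNT Flox did not overlap AHR Flox for Igf2 and Grb10, both higher (35.8% in either direction and 18.1% all higher). The 2 knockout comparisons use separate controls, and each comparison with a control line shares that control with ARNT Flox against AHR Flox.

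**Figure D4:**
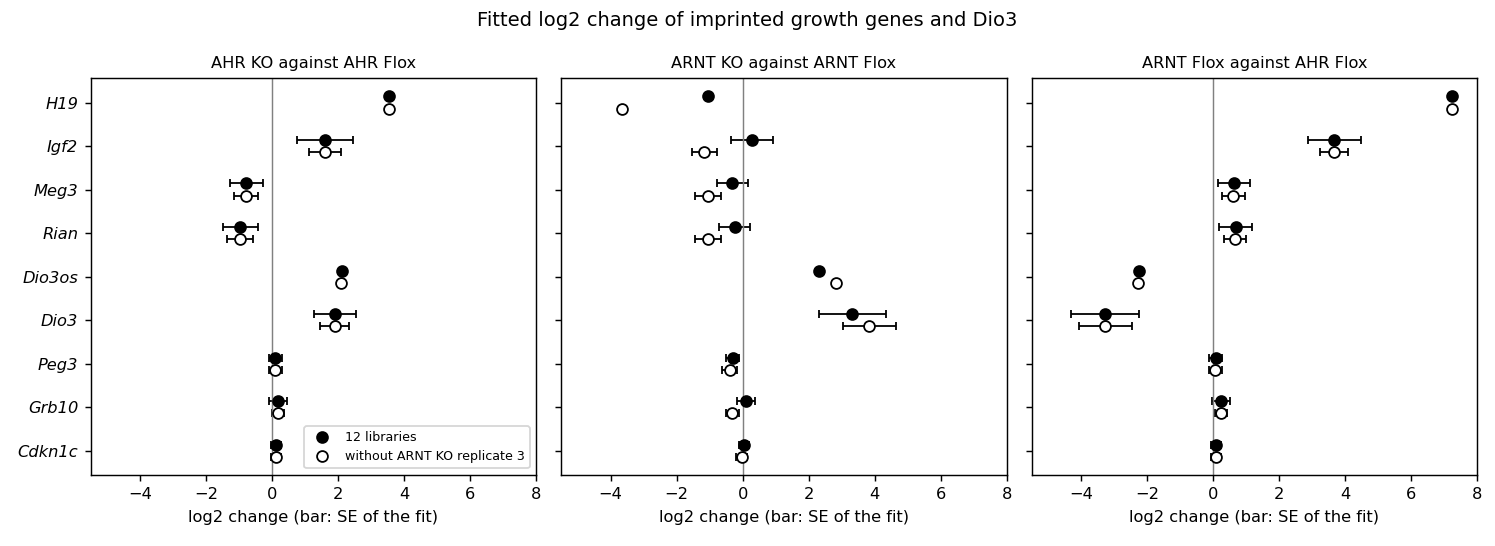
Fitted log2 change of 8 of the genes and Dio3 in 3 comparisons, with all 12 libraries (filled) and without ARNT KO replicate 3 (open); bars are the SE, left out for H19 and Dio3os because no test is given for them. H19 in ARNT KO is at -1.04 with that library and at -3.66 without it, and the values for AHR KO against AHR Flox stay in place.

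A list of 67 other imprinted genes gave a background for these values. Of these, 65 were in the table and 44 were tested. None of the 44 was called in any of the 4 comparisons (edgeR; unadjusted p under 0.05 in 4, 1, 2 and 6 genes, in the order AHR KO, ARNT KO, difference, control lines; DESeq2 called 1, Dio3, between the control lines). Their median log2 changes were -0.05, 0.00, -0.05 and 0.02. Of all genes, DESeq2 called 4.1% between the control lines. Without ARNT KO replicate 3, Dio3 was called higher in ARNT KO and lower in ARNT Flox than in AHR Flox, and Sgce, a sarcoglycan gene, was called higher in ARNT Flox (log2 change 0.57 ± 0.15, adjusted p = 0.0385). In that fit 1.37% of all genes were called for ARNT KO and 10.9% between the control lines, in either direction. With all libraries Sgce had an adjusted p of 0.220, and 0.212 with the replicate block (edgeR).

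**Figure D5:**
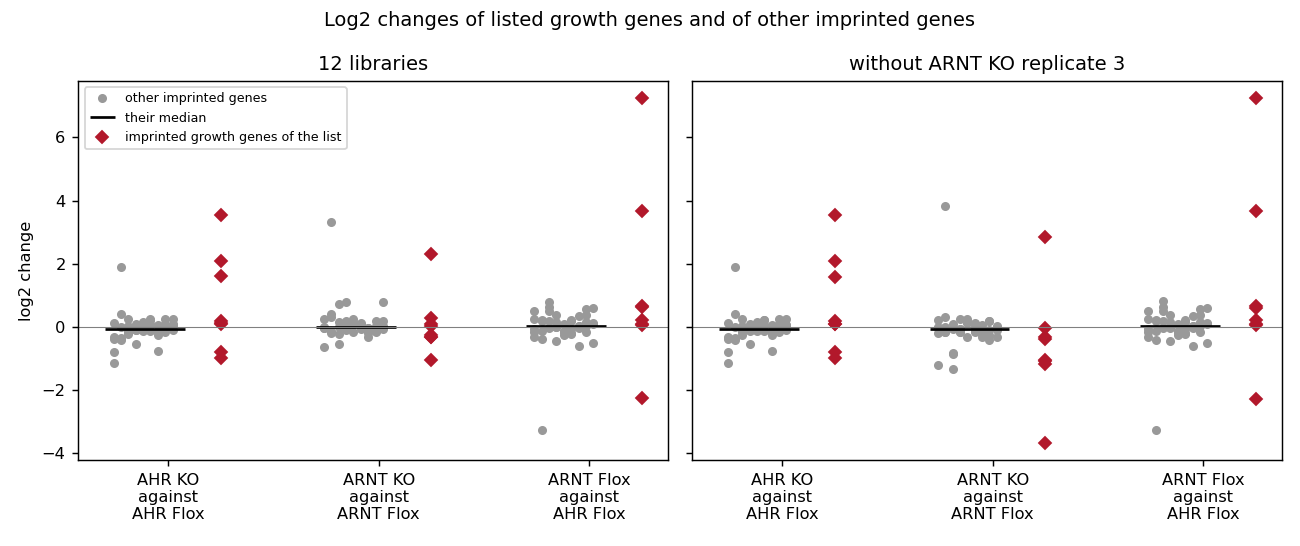
Log2 changes of 44 other imprinted genes (grey, black line at their median) and of 8 of the genes described here (red) in 3 comparisons, with 12 libraries at the left and without ARNT KO replicate 3 at the right. The grey medians lie between -0.06 and 0.02, and the grey point far from the rest in each comparison is Dio3.

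Genes of the insulin-like growth factor axis were tested next, since Igf2 acts through it. Of 25 listed genes 21 were tested and 0 were called in any comparison with all libraries (edgeR; unadjusted p under 0.05 in 2 for AHR KO, 0 for ARNT KO, 3 for the difference and 1 for the control lines). Igfbp2, a binding protein for the growth factors that liver secretes, was at 619.6, 715 and 1109.6 CPM in the libraries labelled AHR KO, against 264, 467 and 194 CPM in AHR Flox, with no overlap (log2 change 1.40 ± 0.33; edgeR, adjusted p = 0.124). DESeq2 called Igfbp2, and no other gene of the axis, there (adjusted p = 0.00169) and in the difference between the effects. In these comparisons DESeq2 called 2.57% and 1.06% of all genes. Igf2r, the receptor that clears Igf2, had log2 changes of -0.13 in the libraries labelled AHR KO (edgeR, adjusted p = 0.708) and -0.05 in ARNT KO (adjusted p = 1.00). Without ARNT KO replicate 3, edgeR called 1 of the 21 genes, Ghr, lower in ARNT Flox than in AHR Flox. It called 10.9% of all genes there in either direction.

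Afp, the fetal serum protein whose silencing after birth resembles that of H19, did not move with H19. It was at 1.11, 1.10 and 0.941 CPM in the libraries labelled AHR KO, against 5.01, 4.78 and 5.26 CPM in AHR Flox, and was called lower (log2 change -2.25 ± 0.29, edgeR, adjusted p = 0.0168). In ARNT KO its log2 change was -0.12 ± 0.27 (adjusted p = 1.00). H19 was higher in the same libraries labelled AHR KO. Afp lies close to Alb, the gene for albumin, on chromosome 5 (Alb 90460870 to 90476602, Afp 90490714 to 90508907). Alb was lower in the same libraries, at 5491 to 7089 CPM against 78433 to 89274 CPM in AHR Flox. Alb was also low in ARNT KO replicate 3, at 5740 CPM against 69704 to 87894 CPM in ARNT Flox. Afp in that library was at 2.33 CPM, against 2.56 to 4.64 CPM in ARNT Flox. Whether the fall of Afp belongs to that locus was not tested. The Pearson r of Afp with H19 over 12 libraries was -0.223. With all libraries, edgeR called no other of 16 tested among 25 fetal liver and oncofetal genes in any comparison. DESeq2 called Afp lower under the AHR KO label and in the difference between the effects (2.57% and 1.06% of all genes called). Between the control lines, where it called 4.1% of all genes, it called Prom1 (adjusted p = 0.00484) and Sox4 (adjusted p = 0.0396) higher in ARNT Flox. With the replicate block in edgeR, Prom1 and Sox4 had adjusted p of 0.118 and 0.143 there. The summed level of the 25 genes was 84.1, 122 and 636 CPM in ARNT KO, against 143 to 211 CPM in ARNT Flox. Without ARNT KO replicate 3, edgeR called 6 of 17 higher in ARNT Flox than in AHR Flox (Elovl7, Hmga1, Ly6d, Prom1, Scd2 and Sox4), where 6.38% of all genes were called higher. The filter passed 17 genes of the list in that fit and 16 with all libraries. Hmga1 was near the floor, with 10, 16 and 6 counts in ARNT Flox against 1, 1 and 2 in AHR Flox. Scd2, a fatty acid desaturase, was called lower in ARNT KO in the fit without replicate 3 (-1.66 ± 0.305, adjusted p = 0.0241; with all libraries 0.64 ± 0.78, adjusted p = 0.995). Of all genes, 1.37% were called for ARNT KO in that fit.

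Of 23 genes for repressors that act on fetal genes after birth, 22 were tested and edgeR called 0 in each comparison with all libraries (unadjusted p under 0.05 in 2 for AHR KO, 3 for ARNT KO, 3 for the difference and 3 for the control lines). DESeq2 called 1, Trim28, a corepressor that helps keep imprints in the early embryo, higher under the AHR KO label (log2 change 0.43 ± 0.12, adjusted p = 0.0179). DESeq2 called 2.57% of all genes in that comparison. Zhx2 and Zbtb20, repressors of Afp in adult mouse liver, of which Zhx2 also acts on H19, had log2 changes of 0.16 ± 0.16 and 0.285 ± 0.10 in the libraries labelled AHR KO (edgeR, adjusted p = 0.743 and 0.295). In ARNT KO the values were -0.04 ± 0.16 and -0.10 ± 0.10 (adjusted p = 1.00 and 0.994). Without ARNT KO replicate 3, edgeR called 2 of the 22 repressors lower in ARNT Flox than in AHR Flox (Ctcf and Zhx1). Of all genes, 10.9% were called there in either direction. In the thyroid hormone axis, to which Dio3 belongs, 18 of 20 listed genes were tested and edgeR called 1 with all libraries: Serpina7, the thyroxine-binding globulin, averaged 94.9 ± 7.78 CPM in ARNT Flox and 46.6 ± 5.44 CPM in AHR Flox (SD, n = 3 each; log2 change 1.03 ± 0.175, adjusted p = 0.0403). With the replicate block this call was lost (adjusted p = 0.053). DESeq2 called Serpina7 there, higher in the libraries labelled AHR KO (0.63 ± 0.19, adjusted p = 0.0353), lower in ARNT KO (-0.93 ± 0.19, adjusted p = 0.000765) and in the difference, and it called Dio3 lower in ARNT Flox than in AHR Flox (adjusted p = 0.0495). Its share of all genes called was 4.1% between the control lines, 2.57% for AHR KO, 0.401% for ARNT KO and 1.06% for the difference. With the replicate block in edgeR, Dio3 had an adjusted p of 0.143 between the control lines. Without ARNT KO replicate 3, edgeR called Serpina7 higher and Dio3 lower in ARNT Flox than in AHR Flox (10.9% of all genes in either direction). In that fit Serpina7 was called lower and Dio3 higher in ARNT KO (1.37% of all genes). Serpina7 was also called in the difference (1.38%). Of 16 tested genes near the imprinted domains, edgeR called 0 in each comparison with all libraries (unadjusted p under 0.05 in 2, 2, 3 and 5). DESeq2 called Mrpl23 higher under the AHR KO label, as above, where it called 2.57% of all genes. Between the control lines, where it called 4.1% of all genes, it called Lsp1 higher and Hsp90aa1 lower in ARNT Flox. With the replicate block in edgeR, Lsp1 and Hsp90aa1 had adjusted p of 0.145 and 0.112 there. Without ARNT KO replicate 3, edgeR called 2 of the 16 higher in ARNT Flox than in AHR Flox (Ikzf1 and Lsp1) and 1 lower (Hsp90aa1). It called 10.9% of all genes in that comparison.

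The level of other cell types was read from marker lists. Summed proliferation markers were 85.9, 66.8 and 158 CPM in ARNT KO, against 59.7 to 64.9 CPM in ARNT Flox, and 48.2 to 70.9 CPM in AHR KO, against 46.7 to 72.6 CPM in AHR Flox, with 0 of 16 markers at 0 counts in any group. Cholangiocyte markers summed to 179, 226 and 452 CPM in ARNT KO against 196 to 248 CPM in ARNT Flox, and 153 to 192 CPM in AHR KO against 174 to 189 CPM in AHR Flox. Stellate and mesenchymal markers summed to 410, 555 and 782 CPM in ARNT KO against 529 to 644 CPM in ARNT Flox, and 309.7 to 441 CPM in AHR KO against 361 to 492 CPM in AHR Flox. No marker of these 2 lists was at 0 counts in any group. Hepatocyte markers summed to 96957, 98862 and 43164 CPM in ARNT KO against 107270 to 129330 CPM in ARNT Flox, and to 51198 to 57722 CPM in AHR KO against 123210 to 131420 CPM in AHR Flox. The differences in the hepatocyte sum lay in Alb, the gene for albumin, at 5740 CPM in ARNT KO replicate 3 against 69704 to 87894 CPM in ARNT Flox, and at 5491 to 7089 CPM in AHR KO against 78433 to 89274 CPM in AHR Flox. Without Alb the sum was 45031, 45177 and 37423 CPM in ARNT KO against 37566 to 41441 CPM in ARNT Flox, and 45707 to 50633 CPM in AHR KO against 40669 to 44780 CPM in AHR Flox. Of the 11 hepatocyte markers, 8 had a log2 change above 0 under the AHR KO label.

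Macrophage markers summed to 588, 628 and 981 CPM in ARNT KO against 726 to 747 CPM in ARNT Flox, and to 501 to 607 CPM in AHR KO against 466 to 716 CPM in AHR Flox. Endothelial markers summed to 431, 480 and 508 CPM in ARNT KO against 464 to 532 CPM in ARNT Flox, and to 345 to 442 CPM in AHR KO against 391 to 446 CPM in AHR Flox. Between ARNT Flox and AHR Flox, where H19 and Igf2 were farthest apart, 9 of 10 macrophage markers had a log2 change above 0 (6 at an unadjusted p under 0.05, 0 called) and so had 10 of 10 endothelial markers (4 and 0; edgeR). The same held for 13 of 14 stellate and mesenchymal markers (3 and 0), 9 of 10 cholangiocyte markers (0 and 0) and 8 of 8 mesothelial markers (0 and 0). Hepatocyte markers went the other way, with 3 of 11 above 0 and 8 below (0 and 0). The median over all genes was -0.0007. The share of all genes at an unadjusted p under 0.05 is not given here, for these lists or those above. Counts at that threshold are therefore not read as an excess. Of all tested genes, edgeR called 0.329% in this comparison, and 35.8% did not overlap between the 2 control lines. Without ARNT KO replicate 3, edgeR called 5 of 10 macrophage markers higher in ARNT Flox than in AHR Flox (C1qa, Cd5l, Cd68, Clec4f and Csf1r). It also called 1 of 14 stellate and mesenchymal markers higher (Vim). Of all genes, 6.38% were called higher in that fit. No endothelial, cholangiocyte, mesothelial or hepatocyte marker was called there. The part of the proliferation, cholangiocyte, mesenchymal, macrophage, endothelial, mesothelial and hepatocyte markers in the results for H19 and Igf2 was not tested. Of the skeletal muscle markers, which belong to another tissue with high H19 and Igf2, the sum was 0.787 to 1.29 CPM over all groups, and Myod1 was at 0 counts in all of them.

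Among 12258 tested genes with a mean of at least 1 CPM, the genes whose log2 CPM was most like that of H19 over 12 libraries were Samhd1 (Pearson r 0.962), Sp140 (0.959), Abi3 (0.95), Adcy4 (0.948) and Arl4c (0.945), and the most opposite were Rap2a (-0.971), Uros (-0.951) and Ybey (-0.95). For Dio3os the most alike were Tmed1 (0.965), Slc25a38 (0.954), Ppie (0.948), 2610528E23Rik (0.945) and B230118H07Rik (0.944), and the most opposite were Nfkbie (-0.972), Snhg11 (-0.958) and Abhd5 (-0.957). The 12 libraries share 4 group means, so these values describe this set of libraries.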

How the data were processed

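Poly-A RNA libraries from 12 livers were made with NEBNext Ultra II after Trizol extraction, per the labels' protocols. The authors deposited raw counts per gene, whole numbers for 22537 symbols. Tools named in the submitters' processing notes are STAR (2.5.4b, 2.6.0c), DESeq2 1.20.0, R 3.5.1 and bcl2fastq 2.20, with the build mm10. How reads were assigned to genes, and with which strand setting, is not given in the sources used here.

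Counts were tested with edgeR 4.0.16 in R 4.3.3: filterByExpr at its defaults (minimum count 10, minimum total 15) left 13968 genes, libraries were scaled with TMM, and all 12 libraries entered 1 quasi-likelihood fit (two-sided) with a mean per group, adjusted by Benjamini-Hochberg over all genes tested. Called means an adjusted p under 0.05. DESeq2 1.42.0, limma 3.58.1, other scaling, no filter, a replicate block and leaving out each library were alternatives. The procedure was tested on simulated data. The common biological coefficient of variation was 17.5%. Replicate p-values measure the spread between these mice, 1 library each. No 2 libraries of a group were duplicates.

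Same-numbered libraries of ARNT Flox and AHR Flox had residual correlations above 0 (r = 0.327, 0.153 and 0.101). Values for pairs with different numbers are not given here. From the data alone, the number was therefore used as a block in an alternative fit. The main fit has no block, and tests printed have none unless it is named. The members and lists were chosen with earlier results of these data known. Genes were named by this rule: the 10 genes; called members of each list, else up to 2 with the smallest p and a mean of at least 1 CPM; the neighbours of H19 and Dio3os; the 5 most and 3 least similar genes; and Ahr and Arnt. Igf2r and Zhx2 fall outside it and were named for their known roles after their values were seen. Positions are from RefSeq GRCm38.p6, matched by symbol for 89.9% of tested genes.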

Additional observations from a re-analysis of the deposited data

Results flagged for a closer look

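The effect on Arnt differed between the labels: the log2 change in the libraries labelled AHR KO minus that in ARNT KO was 1.30 ± 0.17 (SE; test of the difference itself in edgeR, adjusted p = 0.0301). It is the difference by which the ARNT KO label is read. Arnt was 62.9 ± 6.82 CPM in AHR KO against 56.6 ± 6.63 CPM in AHR Flox, and 22.7 ± 3.30 CPM in ARNT KO against 50.2 ± 2.33 CPM in ARNT Flox (SD, n = 3 each).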

How the results depend on the processing

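Counts of called genes depended on the tool and on single libraries. For AHR KO against AHR Flox, 11 genes were called, 28 with no filter, 359 with DESeq2 and 5 to 136 when 1 library was left out. For ARNT KO against ARNT Flox the count was 8, with 56 for DESeq2, 5 for limma-voom, 3 with the replicate block and 1 to 193 when 1 library was left out. The difference between those effects gave 6, 148 with DESeq2 and 1 to 194 when 1 library was left out; ARNT Flox against AHR Flox gave 46, 572 with DESeq2, 23 with the replicate block and 12 to 1532. The highest count in each range was without ARNT KO replicate 3. Counts moved by over 1.5 times without any single library but ARNT Flox 1 for AHR KO, and without any but AHR KO 3 for ARNT KO. For the difference they moved without ARNT KO 2 or 3, ARNT Flox 2 or 3, AHR KO 2, or AHR Flox 1 or 3, and between the control lines without any but ARNT KO 2, AHR KO 1 and AHR KO 3. Of other imprinted genes, DESeq2 called 1 between the control lines, where leaving out 1 library gave 0 to 2, and leaving out 1 library gave 0 to 1 in ARNT KO.

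Several log2 changes turned sign. Igf2 in ARNT KO was -0.17 with limma-voom, -0.02 with the replicate block, and -1.16 to 0.73 when 1 library was left out. For the difference between effects, Dio3os was 0.26 with limma-voom and -0.75 to 0.44 when 1 library was left out. When 1 library was left out, Meg3 was -1.06 to 0.25 in ARNT KO and -1.04 to 0.28 in the difference, and Rian -1.04 to 0.26 and -1.22 to 0.07. Peg3 was -0.18 to 0.26 between the control lines, and Grb10 -0.31 to 0.33 in ARNT KO and -0.15 to 0.49 in the difference. Cdkn1c was -0.01 to 0.19 in AHR KO, -0.08 to 0.14 in ARNT KO, -0.05 to 0.19 in the difference and -0.03 to 0.20 between the control lines. The cause was not tested. Same-numbered libraries had residual correlations of 0.0138, 0.0496 and 0.141 for AHR KO with AHR Flox, and -0.037, -0.00755 and -0.0123 for ARNT KO with ARNT Flox. The labels name no link between them beyond the number, and the block changed no call of the 6 tested genes. Depth limits Dlk1, Dio3 and Igf2 in AHR Flox.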
